A study of Mus musculus with 6 samples.

Results

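The blood-brain barrier genes examined here were 10 genes of brain endothelial cells, chosen by symbol for their roles in the barrier and matched to the Ensembl identifiers of the count tables. They were 4 junction genes (Cldn5, Ocln, Tjp1 and Cdh5), 5 transporter genes (Slc2a1, Mfsd2a, Abcb1a, Slco1a4 and Slco1c1) and Plvap, a marker of leaky vessels. The tables list 54752 genes, of which 18617 passed the filter on low counts, and all 10 barrier genes were among them. RNA was sequenced from the right hippocampus of 3 sham-operated mice and 3 mice with bilateral carotid artery stenosis (BCAS), all wild-type male C57BL/6 mice aged 14 weeks. In BCAS mice a microcoil narrowed each common carotid artery, the narrower coil being on the right, whereas sham mice underwent the surgery without coils. Tissue was taken 3 weeks after surgery. At that time the study reported lower blood flow in both hemispheres of BCAS mice, without a measurement in the hippocampus itself. It also reported atrophy of the right hippocampus, loss of hippocampal neurons and larger infarct areas on the side of the narrower coil. Each library came from the entire hippocampus of 1 animal, so the RNA of endothelial cells was mixed with that of all other cells.

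The blood-brain barrier is formed by endothelial cells that are sealed to each other by tight and adherens junctions and that form few transport vesicles. Nutrients cross these cells through dedicated carriers, and efflux pumps return many lipophilic compounds to the blood. Vessels outside the barrier, such as those of the choroid plexus, carry fenestrae closed by diaphragms, which barrier vessels lack. Wnt and Norrin signals from neighbouring neural cells maintain the barrier programme in the endothelium.

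The libraries held 29652456 to 35607098 counted reads, with 290 to 4825 reads for a barrier gene in a library. Expression is given as CPM, the reads of a gene relative to the library's total, scaled by TMM, a normalization based on the bulk of genes. Genes used as markers of endothelial cells, some of which other cells also make, were present in every library. Over 14 such genes that are not among the 10, summed levels were 345 to 358 CPM in sham mice and 452 to 565 CPM in BCAS mice. Markers of other cell types also differed between the groups. All 8 microglial markers rose (summed level 309 to 321 CPM in sham mice and 1827 to 2948 CPM in BCAS mice), all 8 astrocyte markers rose (3421 to 3695 against 5202 to 5353 CPM), and 7 of 8 neuronal markers fell (11014 to 11628 against 5815 to 8411 CPM). In bulk tissue, a change in the number of cells of a type and a change in the RNA per cell cannot be told apart. Choroid plexus RNA differed strongly between single libraries, and the groups overlapped. The summed level of 8 choroid plexus markers was 1015, 4165 and 73.9 CPM in sham mice 1 to 3 and 6068, 42.9 and 3292 CPM in BCAS mice 1 to 3. The marker with the most reads among them, Ttr, which encodes transthyretin, had 38.1 CPM in sham mouse 3 and 23.7 CPM in BCAS mouse 2 but 5461 CPM in BCAS mouse 1.

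Of the 10 barrier genes, 5 rose in BCAS mice (Cdh5, Tjp1, Abcb1a, Slc2a1 and Slco1a4), 1 fell (Mfsd2a) and 4 did not pass the test (Cldn5, Ocln, Slco1c1 and Plvap). The test was edgeR's quasi-likelihood test, and a gene was called when its Benjamini-Hochberg adjusted P over all 18617 tested genes was under 0.05. By the same rule, 31.3% of all tested genes changed. These were made up of the 18.0% of tested genes that were higher and the 13.2% that were lower in BCAS mice. None of the 10 reached the study's further threshold for differentially expressed genes, an absolute log2 fold change above 1, which 9.46% of tested genes passed. Cdh5 came closest, and it lay above this threshold in 3 alternatives, with 1.06 when libraries were scaled by their totals alone, 1.04 without sham mouse 3 and 1.04 in the 4 libraries richest in choroid plexus RNA. The median log2 fold change of the 10 genes was 0.39, against 0.018 over all tested genes. The lowest was -0.32 (Mfsd2a) and the highest 0.98 (Cdh5). In 6 of the 10 genes every BCAS mouse lay above every sham mouse, as it did in 25.3% of all tested genes. In 1, Mfsd2a, every BCAS mouse lay below every sham mouse, as it did in 22.7% of tested genes, and in 3 the groups overlapped. With so many genes called throughout the transcriptome, these shares are a description, and nothing particular to the 10 genes is read from them.

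**Figure D1:**
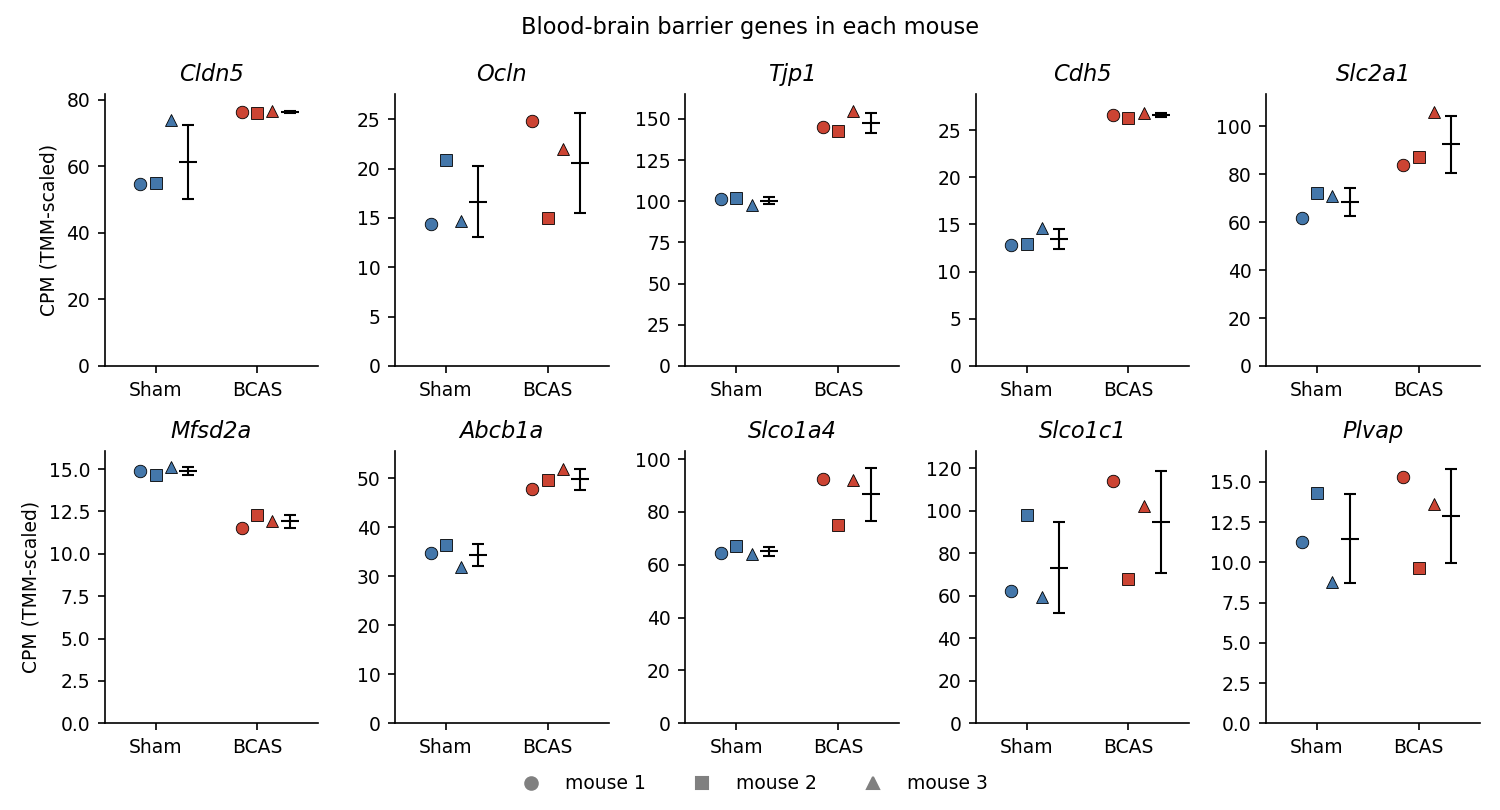
TMM-scaled CPM (y axis, starting at 0) of the 10 barrier genes in each of 3 sham and 3 BCAS mice, with symbols marking mice 1 to 3 of each group and a bar for the mean ± SD. The BCAS mice sit together near 26.6 CPM for Cdh5, well above the sham mice, whereas both groups spread over the same range for Plvap.

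Among the junction genes, Cdh5 changed most. It encodes VE-cadherin, the cadherin of endothelial adherens junctions, and its gene spans 104101625 to 104144511 of chromosome 8 (mm10, as are all positions here). Its level was 12.8, 12.9 and 14.6 CPM in sham mice 1 to 3 and 26.6, 26.3 and 26.8 CPM in BCAS mice 1 to 3. The groups were far apart and the BCAS mice differed little among themselves. Means were 13.4 ± 1.03 CPM in sham and 26.6 ± 0.224 CPM in BCAS mice (SD, n = 3 each), and the log2 fold change was 0.98 (SE 0.10, edgeR adjusted P = 1.79e-04).

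Tjp1 encodes ZO-1, the scaffold that ties tight junction proteins to actin, and lies on chromosome 7 from 65296165 to 65527781. Many cell types besides endothelium use it. Its level was 101, 102 and 97.8 CPM in sham mice and 145, 143 and 155 CPM in BCAS mice, again without overlap. On the log2 scale Tjp1 rose by 0.56 (SE 0.07, edgeR adjusted P = 4.62e-04).

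Cldn5 encodes claudin-5, the most abundant claudin of brain endothelium, on chromosome 16 from 18776847 to 18778262. Its level was 54.7, 55.0 and 74.1 CPM in sham mice 1 to 3 and 76.4, 76.1 and 76.7 CPM in BCAS mice. Sham mouse 3 stood close to the BCAS mice, while the other 2 sham mice lay lower. BCAS and sham mice differed by 0.32 in log2 fold change, with a 95% confidence interval of 0.055 to 0.58, which did not pass after adjustment (edgeR adjusted P = 0.0670). Without sham mouse 3 it was 0.47 (adjusted P = 0.00595). Over the alternatives tried, the adjusted P of Cldn5 lay between 0.00595 and 0.219, and 5 of them called it. Sham mouse 3 also had the highest summed level of 4 smooth muscle markers, with 82.8 CPM against 29.7 to 52.2 CPM in the other libraries. Acta2, which encodes smooth muscle actin, was at 54.5 CPM in this mouse and at 16.8 to 28.1 CPM elsewhere. The part of these arterial cells in the Cldn5 value was not tested.

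Ocln encodes occludin, a membrane protein of tight junctions in endothelia and epithelia, on chromosome 13 from 100496507 to 100552718. It had 14.4, 20.8 and 14.7 CPM in sham mice and 24.8, 14.98 and 22.0 CPM in BCAS mice. The groups overlapped, with BCAS mouse 2 within the sham range. For Ocln the log2 fold change of 0.31 had a 95% confidence interval of -0.16 to 0.78 (edgeR adjusted P = 0.295), an interval that holds the value of Tjp1. The log2 fold change of Ocln was 0.15 without BCAS mouse 1 and 0.50 without sham mouse 2. When BCAS mouse 2 was left out it was 0.48, with the lowest edgeR adjusted P of these (0.0592).

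The transporters split by direction. Slc2a1 encodes GLUT1, which carries glucose across the endothelium and also serves astrocytes, and lies on chromosome 4 from 119108711 to 119137983. Its level was 61.7, 72.4 and 70.8 CPM in sham mice and 83.9, 87.4 and 106 CPM in BCAS mice. No BCAS mouse came down to the sham range, and BCAS mouse 3 was highest. Slc2a1 rose by 0.44 on the log2 scale (SE 0.11, edgeR adjusted P = 0.0139). The call was lost without sham mouse 1, with 0.37 and an adjusted P of 0.0641, while the other alternatives went down to 0.00211. An antisense gene, Gm12868, overlaps 2.99% of its exon bases.

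Abcb1a encodes P-glycoprotein, the main drug efflux pump of the barrier, on chromosome 5 from 8660077 to 8748575. It had 34.7, 36.4 and 31.95 CPM in sham mice and 47.8, 49.6 and 52.0 CPM in BCAS mice, without overlap. This was a rise by 0.54 on the log2 scale (SE 0.08, edgeR adjusted P = 0.00175). Abcb1b, the neighbouring paralog that encodes a second P-glycoprotein, had 5.64, 4.998 and 4.23 CPM in sham mice and 12.2, 12.2 and 15.9 CPM in BCAS mice. Its log2 fold change was 1.44 (standard error 0.17, edgeR adjusted P = 3.99e-04). Of the 5324 different windows of 150 bases in the Abcb1a transcripts, 9.71% also occur in transcripts of Abcb1b or of the overlapping Gm42686. Reads that fit both places were not counted, so both levels are lower limits in that part. Gm42686 runs on the opposite strand and overlaps 10.1% of the exon bases of Abcb1a. No window of the other 9 barrier genes was shared with another gene.

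Slco1a4 and Slco1c1 are neighbours on chromosome 6 and encode organic anion transporters of brain capillaries. Slco1a4, from 141805440 to 141856199, had 64.4, 67.0 and 64.0 CPM in sham mice and 92.6, 75.2 and 92.1 CPM in BCAS mice. All BCAS mice were above all sham mice, and BCAS mouse 2 was nearest to them. Slco1a4 rose by 0.41 on the log2 scale (SE 0.09, edgeR adjusted P = 0.00965). Slco1c1, from 141524368 to 141570177, carries thyroxine and is also found in choroid plexus epithelium and astrocytes. It had 62.2, 97.8 and 59.6 CPM in sham mice and 114, 67.7 and 102 CPM in BCAS mice. Sham mouse 2 reached the BCAS range and BCAS mouse 2 the sham range. For Slco1c1 the log2 fold change of 0.37 had a 95% confidence interval of -0.14 to 0.88 and did not pass (edgeR adjusted P = 0.247). The log2 fold change of Slco1c1 was 0.21 without BCAS mouse 1, 0.24 without sham mouse 3 and 0.63 without sham mouse 2, and no mouse left out brought a call (lowest edgeR adjusted P = 0.0544, without BCAS mouse 2).

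Mfsd2a was the single barrier gene that fell. It encodes the carrier that brings docosahexaenoic acid into the brain as a lysophospholipid, and it is known to restrain vesicle transport through barrier endothelium. The gene lies on chromosome 4 from 122946850 to 122961188. Its level was 14.9, 14.7 and 15.1 CPM in sham mice and 11.5, 12.3 and 11.96 CPM in BCAS mice. The mean was 14.9 ± 0.233 CPM in sham mice and 11.9 ± 0.395 CPM in BCAS mice (SD, n = 3 each), so that the gap of the groups exceeded the spread within them. Its log2 fold change was -0.32 (SE 0.10) and passed narrowly (edgeR adjusted P = 0.0434). The direction held in all 16 alternatives, with log2 fold changes of -0.35 to -0.25, but adjusted P values ran from 0.0273 to 0.131. The adjusted P was above 0.05 without sham mouse 1 (0.0967), sham mouse 2 (0.108), sham mouse 3 (0.109), BCAS mouse 1 (0.131) or BCAS mouse 3 (0.0835), and it was 0.108 with library totals in place of TMM. Its edgeR adjusted P was 0.112 without a filter on low counts and 0.0990 with the replicate block. In the 4 libraries richest in choroid plexus RNA it was 0.0980, so that 9 of the 16 alternatives lost the call.

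Slc2a1 and Mfsd2a lie on the same chromosome and changed in opposite directions, and Slco1a4 was called higher. Their promoters, from 250 bases before to 50 bases after the start, are printed here 5′ to 3′ from RefSeq (GRCm38.p6, the assembly of mm10), with matches of 3 short motifs on either strand in capitals. The motifs were ACGTG, the core of hypoxia response elements, CTTTGA, a core bound by TCF/LEF factors of the Wnt pathway, and AGGAAG, a core bound by ETS factors.
Slc2a1, chr4:119108495-119108794, + strand: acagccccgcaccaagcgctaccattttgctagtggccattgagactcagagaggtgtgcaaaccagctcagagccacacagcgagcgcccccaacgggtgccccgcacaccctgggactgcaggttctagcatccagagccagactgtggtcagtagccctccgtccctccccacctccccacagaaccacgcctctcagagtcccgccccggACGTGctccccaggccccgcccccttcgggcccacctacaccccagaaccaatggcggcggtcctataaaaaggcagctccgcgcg
Mfsd2a, chr4:122961139-122961438, - strand: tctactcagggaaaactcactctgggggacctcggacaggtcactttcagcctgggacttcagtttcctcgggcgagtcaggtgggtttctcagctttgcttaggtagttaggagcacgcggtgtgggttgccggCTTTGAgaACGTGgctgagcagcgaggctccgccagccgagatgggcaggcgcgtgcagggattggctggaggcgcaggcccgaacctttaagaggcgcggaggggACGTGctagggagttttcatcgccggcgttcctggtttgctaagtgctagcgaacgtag
Slco1a4, chr6:141856171-141856470, - strand: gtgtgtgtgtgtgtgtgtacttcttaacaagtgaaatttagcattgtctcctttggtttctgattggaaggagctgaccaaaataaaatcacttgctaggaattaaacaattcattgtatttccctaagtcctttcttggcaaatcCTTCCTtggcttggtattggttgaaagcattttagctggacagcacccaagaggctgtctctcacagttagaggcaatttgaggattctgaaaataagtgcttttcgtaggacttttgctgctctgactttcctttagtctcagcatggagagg

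The Slc2a1 promoter held ACGTG 1 time, beginning 36 bases before the start. The Mfsd2a promoter held ACGTG at 107 and at 9 bases before the start and CTTTGA at 115 bases before it. The Slco1a4 promoter held only AGGAAG, on the opposite strand at 104 bases before the start. RefSeq promoters were matched for 8 of the 10 genes, all but Cdh5 and Plvap. ACGTG was found in 4 of these 8 genes (Tjp1, Slc2a1, Mfsd2a and Slco1c1), against 19.6% of all 32851 promoters in the table. CTTTGA was found in 2 (Mfsd2a and Abcb1a), against 16.0%, and AGGAAG in 3 (Abcb1a, Slco1a4 and Slco1c1), against 35.4%. ACGTG was thus present in genes called higher, in the gene called lower and in a gene that was not called. The entry of Abcb1a starts at -92986 and that of Tjp1 at 156537 bases relative to the first base of the counted gene (negative values lie upstream), so they stand for other starts. A match of letters is a description and not a binding site.

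Plvap encodes the protein of the diaphragms that close endothelial fenestrae and caveolae, and it is low in mature barrier vessels. It lies on chromosome 8 from 71497765 to 71511752. Its level was 11.3, 14.3 and 8.80 CPM in sham mice 1 to 3 and 15.3, 9.61 and 13.6 CPM in BCAS mice 1 to 3. Both groups covered nearly the same range. The log2 fold change was 0.17 with a 95% confidence interval of -0.32 to 0.66 (edgeR adjusted P = 0.600), which leaves room for a rise of up to 0.66 or a fall by 0.32 on the log2 scale. Single mice decided the Plvap value, which was 0.0040 without sham mouse 3 and 0.018 without BCAS mouse 1, but 0.33 when BCAS mouse 2 and 0.35 when sham mouse 2 was left out.

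The order of Plvap among the mice was that of the choroid plexus markers. In sham mice both were highest in mouse 2 and lowest in mouse 3, and in BCAS mice both were highest in mouse 1 and lowest in mouse 2. Slco1c1 and Slco1a4 followed the same order within both groups, and the other 7 barrier genes did not. This order was found in 4.30% of all tested genes, and it was looked at after the values were seen. In the 2 libraries with little choroid plexus RNA, sham mouse 3 and BCAS mouse 2, Plvap was at 8.80 and 9.61 CPM, Ocln at 14.7 and 14.98 CPM and Slco1c1 at 59.6 and 67.7 CPM. In the same 2 libraries Cdh5 was at 14.6 and 26.3 CPM.

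When the mean log2 CPM of the choroid plexus markers was added to the edgeR fit, Slco1c1 rose by 0.13 on the log2 scale per unit of it (edgeR adjusted P = 0.0274). The coefficients of Plvap (0.13, edgeR adjusted P = 0.0611) and Ocln (0.11, edgeR adjusted P = 0.0968) were of like size but did not pass. That of Slco1a4, which had followed the choroid plexus order, was 0.040 (edgeR adjusted P = 0.407). The remaining coefficients lay between -0.036 (Cldn5) and 0.014 (Abcb1a), and none of them passed. In that fit the log2 fold change of Plvap between the groups was 0.075, that of Ocln 0.21 and that of Slco1c1 0.27, none of them called. Those of Cdh5 (0.99), Tjp1 (0.55), Abcb1a (0.53), Slc2a1 (0.43), Slco1a4 (0.38) and Mfsd2a (-0.31) stayed called, and Cldn5 passed with 0.35 (edgeR adjusted P = 0.0289). With the 4 libraries richest in choroid plexus RNA alone, 2 per group, the log2 fold change was 1.04 for Cdh5 and 0.16 for Plvap. Those of Ocln (0.40) and Slco1c1 (0.42) were larger there than with all 6 libraries, and neither was called. These 4 libraries were not matched for choroid plexus RNA. Its mean log2 CPM was 4.24 and 6.03 in sham mice 1 and 2 and 6.73 and 5.99 in BCAS mice 1 and 3. The subset therefore cannot be set against the fit with the choroid plexus term. The share of the Plvap, Ocln and Slco1c1 reads that came from the choroid plexus was not tested.

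**Figure D2:**
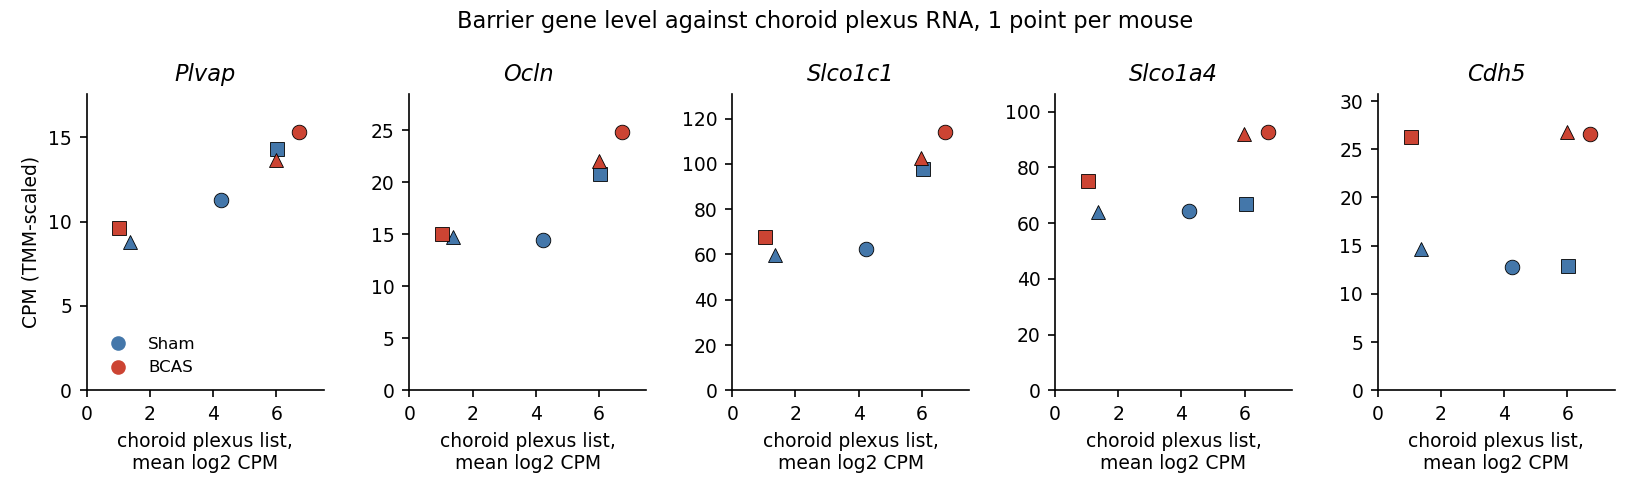
CPM of 5 barrier genes (y axes, starting at 0) against the mean log2 CPM of 8 choroid plexus markers (x axes), with 1 point per mouse coloured by group and shaped by mouse number as in the plot of CPM by mouse. Plvap, Ocln and Slco1c1 are lowest or near their lowest in the 2 mice at the left, sham mouse 3 and BCAS mouse 2, whereas Cdh5 separates by group at every choroid level.

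To see whether the barrier genes moved with the endothelium at large, each was set against 14 other endothelial genes of the same mouse, such as Pecam1, Flt1, Eng and Cd34. The mean log2 CPM of these 14 was 4.33, 4.37 and 4.29 in sham mice and 4.79, 4.58 and 4.96 in BCAS mice. It was higher by 0.44 in BCAS mice, and no BCAS mouse was at or below a sham mouse (exact two-sided permutation test, P = 0.1, the smallest that 3 mice against 3 allow). Of the 14 genes 8 rose, against 18.0% of all tested genes, led by Cd34 (0.84), Eng (0.69), Flt1 (0.60) and Pecam1 (0.52), and 4 rose without sham mouse 3. Pecam1 and Eng are also made by myeloid cells, and the microglial markers rose in the same mice, whose part in the reference level was not tested. None of 5 red blood cell markers passed (edgeR), but all 5 had log2 fold changes above 0, with a median of 0.50. Their summed level was 85.7 to 102 CPM in sham mice and 106 to 178 CPM in BCAS mice. The relation of these markers to the reference level was not tested.

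Relative to this reference, Cdh5 was higher and Mfsd2a lower in every BCAS mouse than in every sham mouse. Log2 CPM of Cdh5 minus the reference was -0.64, -0.67 and -0.42 in sham mice and -0.054, 0.15 and -0.21 in BCAS mice, a difference of 0.54. For Mfsd2a it was -0.42, -0.49 and -0.37 in sham mice and -1.26, -0.95 and -1.37 in BCAS mice, a difference of -0.76. The exact two-sided permutation test gave P = 0.1 for each, and 10 genes were compared in this way without reaching a lower P. On the same scale, every BCAS mouse lay above every sham mouse in 10.5% of all tested genes and below every sham mouse in 50.8%. A separation downwards as in Mfsd2a was common among all genes, and 1 of 10 upwards is near the share of all genes. The differences held their sign under all 10 alternatives, with 0.44 to 0.67 for Cdh5 and -0.89 to -0.63 for Mfsd2a. In the other 8 genes the groups overlapped. Their differences ran from -0.28 for Plvap to 0.11 for Tjp1, with values near 0 for Slc2a1 (-0.010) and Slco1a4 (-0.038). With 1 mouse left out, Plvap ran from -0.44 to -0.12 and Tjp1 from 0.038 to 0.17, whereas the other 6 of these genes took both signs, with Slco1c1 at -0.21 to 0.14 and Cldn5 at -0.21 to 0.052. With the median of the 14 genes in place of their mean, the reference rose by only 0.31 and the values of the 10 genes shifted up, to 0.25 for Tjp1, 0.23 for Abcb1a, 0.12 for Slc2a1 and 0.096 for Slco1a4, while Ocln (-0.014) and Cldn5 (0.024) were then nearest to 0.

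**Figure D3:**
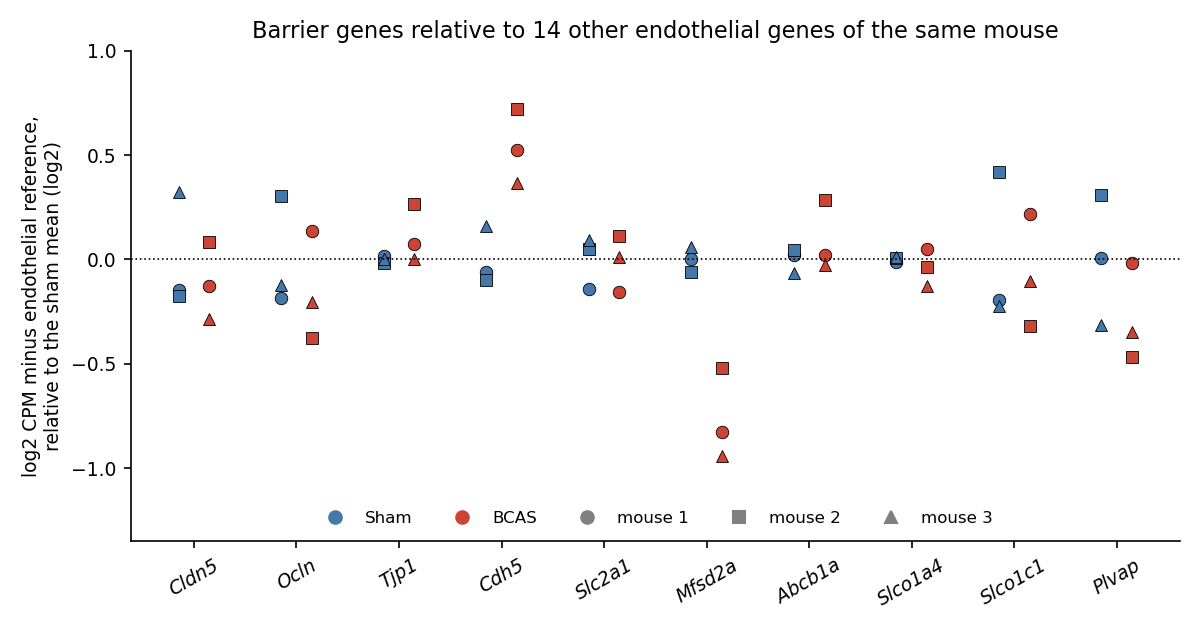
Log2 CPM of each barrier gene minus the mean log2 CPM of 14 other endothelial genes in the same mouse, shown relative to the sham mean (y axis, log2 units), for 3 sham and 3 BCAS mice. The BCAS mice lie above the sham mice for Cdh5 and below them for Mfsd2a, and the groups mix for the other 8 genes.

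**Figure D4:**
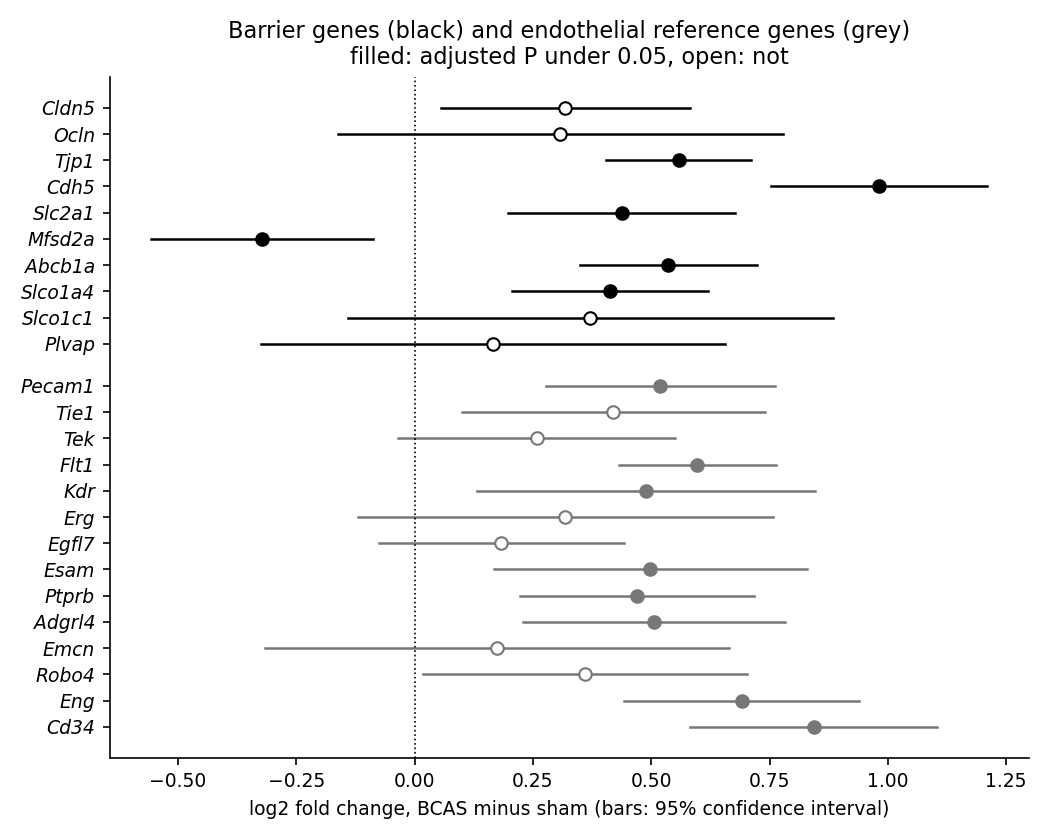
Log2 fold changes between BCAS and sham mice (x axis) with 95% confidence intervals for the 10 barrier genes in black and the 14 endothelial reference genes in grey, filled where the adjusted P was under 0.05. Mfsd2a is the only gene whose point lies below 0, and Cdh5 has the highest point.

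Per length of exon the barrier genes differed by more than an order of magnitude. In sham mice Cldn5 was highest with 43.3 ± 7.82 CPM per kilobase (SD, n = 3), followed by Slc2a1 with 19.5 ± 1.66, Slco1c1 with 14.1 ± 4.12, Tjp1 with 12.8 ± 0.269 and Slco1a4 with 10.2 ± 0.260. Below them came Mfsd2a with 6.62 ± 0.103, Abcb1a with 6.27 ± 0.407, Plvap with 5.77 ± 1.39, Ocln with 3.94 ± 0.858 and Cdh5 with 3.20 ± 0.245 CPM per kilobase. Slco1c1 overlapped both Slc2a1 and Tjp1 over the mice, and Mfsd2a, Abcb1a and Plvap overlapped each other, as did Plvap with Ocln and Ocln with Cdh5. In BCAS mice the levels of Mfsd2a (5.30 ± 0.176) and Cdh5 (6.32 ± 0.0532) had reversed their order, with Mfsd2a at 5.12 to 5.47 and Cdh5 at 6.26 to 6.37 CPM per kilobase.

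Other genes of the barrier were examined as lists, whose counts stand against the 18.0% of all tested genes that were higher and the 13.2% that were lower, and nothing particular to a list is read from them. Of 18 further junction genes, 7 rose, none fell and 11 did not pass, with a median log2 fold change of 0.37. F11r, which encodes the junctional adhesion molecule JAM-A of endothelia, epithelia and leukocytes, rose most, from 8.82, 12.5 and 8.66 CPM in sham mice to 40.8, 36.4 and 50.9 CPM in BCAS mice (log2 fold change 2.09, edgeR adjusted P = 7.23e-05). Nectin2 (0.81), Ctnna1 (0.68), the α-catenin of adherens junctions, and Jam2 (0.66) also rose. Claudin-12, encoded by Cldn12, had a log2 fold change of -0.014 with 36.6, 42.7 and 39.4 CPM in sham mice and 36.5, 39.5 and 41.6 CPM in BCAS mice. The count of rising genes was 4 without sham mouse 1, sham mouse 3 or BCAS mouse 3, and 4 in the libraries richest in choroid plexus RNA. Without BCAS mouse 1, 1 of the 18 fell.

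Of 24 further transporters and receptors of the barrier, 14 rose, 1 fell and 9 did not pass, with a median of 0.37. Slco2b1, an organic anion transporter that microglia also make, rose most, with 16.9 ± 1.84 CPM in sham and 79.3 ± 22.8 CPM in BCAS mice (SD, n = 3 each) and a log2 fold change of 2.23 (edgeR adjusted P = 7.14e-05). BCAS mouse 3, which had the highest summed level of microglial markers (2948 CPM), was also highest for Slco2b1 (105.5 CPM), F11r and Abcb1b (15.9 CPM). The part of microglia in these was not tested. Slco2b1 was followed by Abcb1b (1.44), Ager (1.28) and Slc39a8 (0.96), a metal ion carrier. Ager encodes the receptor for advanced glycation end products and was low, at 0.295 to 1.45 CPM. The gene that fell was Tfrc, the transferrin receptor of endothelial cells and neurons, named here as the only one. It had 144, 143 and 144 CPM in sham mice and 83.5, 76.1 and 83.6 CPM in BCAS mice, and its log2 fold change was -0.83 (edgeR adjusted P = 6.28e-05). Neuronal markers fell in the same mice, and their part in this value was not tested. Without sham mouse 1 or sham mouse 2, 9 of the 24 rose.

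Of 8 caveola genes, whose products shape the vesicles that Mfsd2a is known to restrain, 7 rose and 1, Cavin2, did not pass (0.51, edgeR adjusted P = 0.0515). Their median was 0.69. Ehd4 rose most (log2 fold change 1.98), followed by Cav1, the main coat protein of caveolae, with 18.8, 17.3 and 22.9 CPM in sham mice and 42.3, 38.6 and 52.5 CPM in BCAS mice (1.18, edgeR adjusted P = 5.05e-04). Cavin1 (0.79) and Ehd2 (0.76) rose as well. Caveolae also occur in pericytes, smooth muscle cells and astrocytes, and 6 of 8 pericyte markers rose with a median of 0.73, as did the astrocyte markers. None of 4 smooth muscle markers passed (edgeR), their median being 0.069. Of their log2 fold changes 3 were above 0, and that of Acta2 was -0.44. Microglial markers rose in the same mice, and both their summed level and Ehd4 were highest in BCAS mouse 3. The part of pericytes, smooth muscle cells, astrocytes and microglia in the caveola values was not tested. Of 7 fibroblast markers 4 rose.

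Of 20 genes of the Wnt and Norrin programme of the barrier, 7 rose, none fell and 13 did not pass, with a median of 0.39. Lrp5, a Wnt co-receptor, had the largest rise (1.07, edgeR adjusted P = 0.00231), followed by Lef1, a transcription factor of the pathway, which went from 4.01, 5.18 and 4.23 CPM in sham mice to 7.79, 9.55 and 10.1 CPM in BCAS mice (1.03, edgeR adjusted P = 0.00247). Sox7 (0.69) and Tcf7l1 (0.68) followed. Axin2, a common readout of the pathway, had a log2 fold change of -0.026 and did not pass (edgeR adjusted P = 0.895), and neither did the ligands Wnt7a (0.14) and Wnt7b (0.22). With library totals in place of TMM, 11 of the 20 rose. Axin2, the Wnt ligands, Cldn12, Cavin2, Acta2 and Ttr were chosen after their values were seen.

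**Figure D5:**
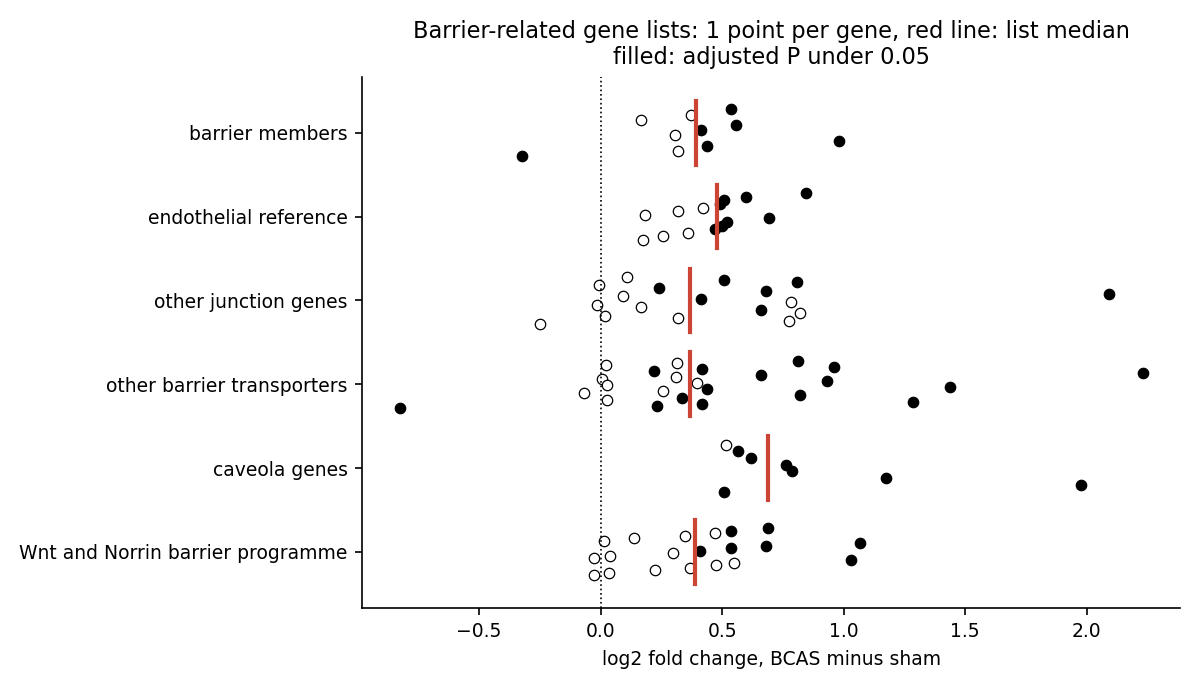
Log2 fold changes between BCAS and sham mice (x axis) of every gene in 6 barrier-related lists, with 1 point per gene, filled where the adjusted P was under 0.05, and a red line at the median of each list. The caveola genes have the highest median, 0.69, and the only filled points below 0 are Mfsd2a among the barrier genes and Tfrc among the other transporters.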

How the data were processed

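The right hippocampus of 3 sham and 3 BCAS mice was sequenced. The authors deposited raw counts per gene, made from trimmed reads aligned with HISAT2 to mm10 according to the methods. The file headers name featureCounts 2.0.3 and the GENCODE M20 annotation, whereas the methods name version 1.6.3 and RefSeq genes. Each mate of a pair counted on its own, without regard to strand, and a read that fitted several places or genes was dropped. Exon lengths are those deposited beside the counts (a unit of bases, not a signal).

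Here the counts were filtered with filterByExpr, scaled by TMM and tested with edgeR 4.0.16 in R 4.3.3 (limma 3.58.1 and DESeq2 1.42.0 as alternatives), without a replicate block, and adjusted by Benjamini-Hochberg over all tested genes. Log2 CPM used a prior count of 2. The libraries held 29652456 to 35607098 counts. Groups came from the labels, and exact permutation tests of 3 mice against 3 cannot go below P = 0.1. Genes named from a list other than the 10 are the up to 4 called genes with the largest absolute log2 fold change. Added to these are Abcb1b, Tfrc as the only gene of its list that fell, and those said to be chosen later. Of the 54752 identifiers, 29 had no symbol. The fits of BCAS against sham with edgeR, DESeq2 and limma-voom were tested on simulated counts with known changes. The other fits, comparisons and searches were not simulated. The alternatives were other tools, normalizations, filters, halved counts, the replicate block and leaving out each mouse, and 2 on choroid plexus RNA were added after seeing the data. The genes and lists were chosen with earlier results of these data known.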

Additional observations from a re-analysis of the deposited data

How the results depend on the processing

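Of 160 log2 fold changes of the 10 barrier genes under 16 alternatives, 145 had the same direction and side of the threshold as reported, and none turned its direction. The number of barrier genes higher in BCAS mice was 5 to 6 in the alternatives that kept all mice and 4 to 6 with 1 mouse left out. The number lower was 0 with library totals, without a filter on low counts and with the replicate block. It was also 0 in the 4 libraries richest in choroid plexus RNA, and ran from 0 to 1 with 1 mouse left out. Where it was 0, Mfsd2a had lost its call. Mfsd2a had 371 to 519 reads per library and kept its call with halved counts (edgeR adjusted P = 0.0426). Its log2 fold change under the replicate block was -0.32 (edgeR adjusted P = 0.0990). The cause was not tested. No pairing by replicate number was found, since residuals of same-numbered mice correlated at 0.036, -0.31 and -0.16 across genes, and the block took no call from the 5 rising genes. Cldn5 passed in 5 alternatives. The shift of the endothelial reference was 0.31 to 0.52 in the alternatives that kept all mice, and 0.35 to 0.54 with 1 mouse left out. Library totals moved the median of all tested genes from 0.018 to 0.095.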
